A study of Rattus norvegicus with 27 samples.

Results

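The genes described here are the secreted and membrane-bound axon guidance ligands and their cell surface receptors, as measured in primary rat Schwann cells, the glia that ensheathe peripheral axons. Members were taken from the gene count table by symbol: semaphorins of classes 3 to 7, plexins, neuropilins, ephrins, Eph receptors, netrins, Unc5 receptors, Slits and Robos. This gave 59 of 17315 rows, of which 33 were ligands and 26 were receptors. The purchased cells were sampled at 3 stages, with 3 libraries that the labels call biological replicates at each. The agent that separates the stages is dbcAMP (dibutyryl cyclic AMP, a membrane-permeable form of cyclic AMP), which was withheld from the undifferentiated cells; the labels give nothing more of their medium. Cells of the differentiated stage were exposed to 1 mM of it over 72 h in DMEM with little serum. At the dedifferentiated stage the exposure had ended 72 h earlier, and the cells had since been in a complete medium containing more serum, forskolin and neuregulin. Stage and medium changed together and cannot be told apart. The labels do not say that replicates came from separate cultures, so the p-values measure only the spread between these samples, which may be technical.

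Library totals ran from 10058735 to 16212278 estimated counts. Levels are given as CPM, the counts per 1000000 counts of the library, and 3 counts, the least that is read as detected, correspond to 0.185 to 0.298 CPM. All 7 Schwann cell markers with a row had at least 3 counts in every library. Summed myelin gene levels had medians of 2029, 12056 and 19825 CPM in undifferentiated, differentiated and dedifferentiated cells, so the stage labelled dedifferentiated held the highest. Of the fibroblast markers, summed levels, mostly of the collagens Col1a1 and Col1a2, were 24405 to 29129, 12017 to 15683 and 16042 to 19578 CPM at the 3 stages. Col3a1 rose instead, averaging 53.2, 92.0 and 147 CPM. The rest were low: Fbln1 averaged 1.82, 4.11 and 1.43 CPM, and Thy1 0.895, 0.993 and 0.903. Dcn averaged 0.0654, 0.475 and 0.363 CPM, Pdgfra 0.259, 0.475 and 0.546, and Lum was at 0 in every library. The endothelial markers Cdh5 and Cldn5, the macrophage markers Adgre1 and Aif1, and the pericyte markers Rgs5 and Kcnj8 were also at 0 throughout. Other genes of these lists did move with the stages. Pdgfrb, which pericytes share with other cells, averaged 136, 674 and 321 CPM and made up most of the pericyte sum (124 to 154, 542 to 810 and 323 to 346 CPM). Acta2 averaged 3.16, 0.199 and 7.30 CPM. Summed endothelial markers, Tek among them, were 1.21 to 3.08, 5.67 to 8.26 and 3.98 to 7.88 CPM, and macrophage markers, with Cd68, were 0.322 to 1.64, 3.64 to 5.09 and 1.88 to 3.39 CPM. The neuronal sum, nearly all Nefl, was 71.0 to 232, 937 to 1299 and 177 to 255 CPM. Satellite glial markers summed to 148 to 176, 331 to 383 and 284 to 305 CPM, with Fabp7 at 0. The part of these cells in the results was not tested. In these bulk libraries, fewer cells of a type and less RNA per cell cannot be told apart.

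Axon guidance ligands tell a growing axon or a migrating cell where to go. Class 3 semaphorins are secreted and signal through a neuropilin that binds the ligand and a plexin that carries the signal inward, whereas the membrane-bound classes mostly bind plexins directly. Ephrins stay on the cell surface and bind Eph receptor tyrosine kinases on the neighbouring cell, netrins bind DCC and Unc5 receptors, and Slits bind Robos. In peripheral nerve these cues sort Schwann cells from axons and fibroblasts and guide regrowing axons after injury, when Schwann cells leave the myelinating state.

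Most of the measured guidance genes changed with the dbcAMP treatment, in both directions. Of the 47 members with enough counts to test, 38 were called between differentiated and undifferentiated cells, with 22 higher and 16 lower (80.9%, where 59.6% of all 10372 tested genes were called). A gene was called at an adjusted p under 0.05 from edgeR's quasi-likelihood test, with adjustment over all tested genes. After dbcAMP withdrawal, 35 of the 47 differed from differentiated cells, 20 higher and 15 lower (74.5%, against 46.4% of all tested genes). Dedifferentiated and undifferentiated cells differed in 30 of the 47, 18 higher and 12 lower (63.8%, against 29.4%). The members' changes were wide: the median absolute log2 change was 1.76, 1.05 and 0.96 in the 3 comparisons, beside 0.47, 0.36 and 0.26 for all tested genes. The count filter keeps a gene that is high at a single stage, so these numbers describe the tested members only. With direction kept, the median log2 changes were 0.12, 0.13 and 0.54, beside 0.05, -0.01 and 0.02. Changes above 2-fold were called in 31, 26 and 16 members, a size that 24.8%, 15.6% and 9.56% of all tested genes reached.

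Ligands and receptors were both affected. Among 28 tested ligands, 14 rose and 10 fell with dbcAMP. Of the 19 tested receptors, 8 rose and 6 fell. Withdrawal was followed by 12 ligands rising and 9 falling, and by 8 receptors rising and 6 falling. Between dedifferentiated and undifferentiated cells, 15 ligands and 15 receptors were called. Of the 47 members, 16 had their highest mean level in undifferentiated cells, 20 in differentiated cells and 11 in dedifferentiated cells.

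Per the labels, replicates 1 and 2 of each stage came from sequencing project 9987 and replicate 3 from project 11026, so values were also recomputed within the first project. There, 33, 26 and 17 members were called in the 3 comparisons. That fit holds fewer libraries, and no share over all tested genes is set beside the counts given here. They therefore do not show whether members lost more calls than other genes. The calls lost with dbcAMP were those of Efnb1, Plxna2, Sema3b and Sema4a, and after withdrawal those of Efna2, Efna4, Efnb3, Ephb3, Ntn4, Robo1, Sema4a, Sema4g and Unc5c. Between dedifferentiated and undifferentiated cells they were Epha1, Epha2, Epha4, Ephb2, Ephb3, Plxnb2, Plxnb3, Sema3b, Sema4d, Sema4f, Sema5a and Unc5b. Epha5 had too few counts there to be tested. The other project holds 1 library a stage and gives no such value. Replicates 2 and 3, of different projects, were the most alike pair at each stage. The chi-square per degree of freedom between their counts was 6.82, 14.5 and 5.37 at the 3 stages in order. For replicates 1 and 2, of the same project, it was 25.4, 23.3 and 22.7. The lost calls therefore cannot be assigned to the project, and their cause was not tested. With the project as a covariate the counts were 37, 34 and 30, also without a share over all tested genes beside them. The calls of Efnb1 with dbcAMP, Unc5c after withdrawal and Plxnb2 between dedifferentiated and undifferentiated cells were lost. That of Robo1 in the last comparison was gained.

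**Figure D1:**
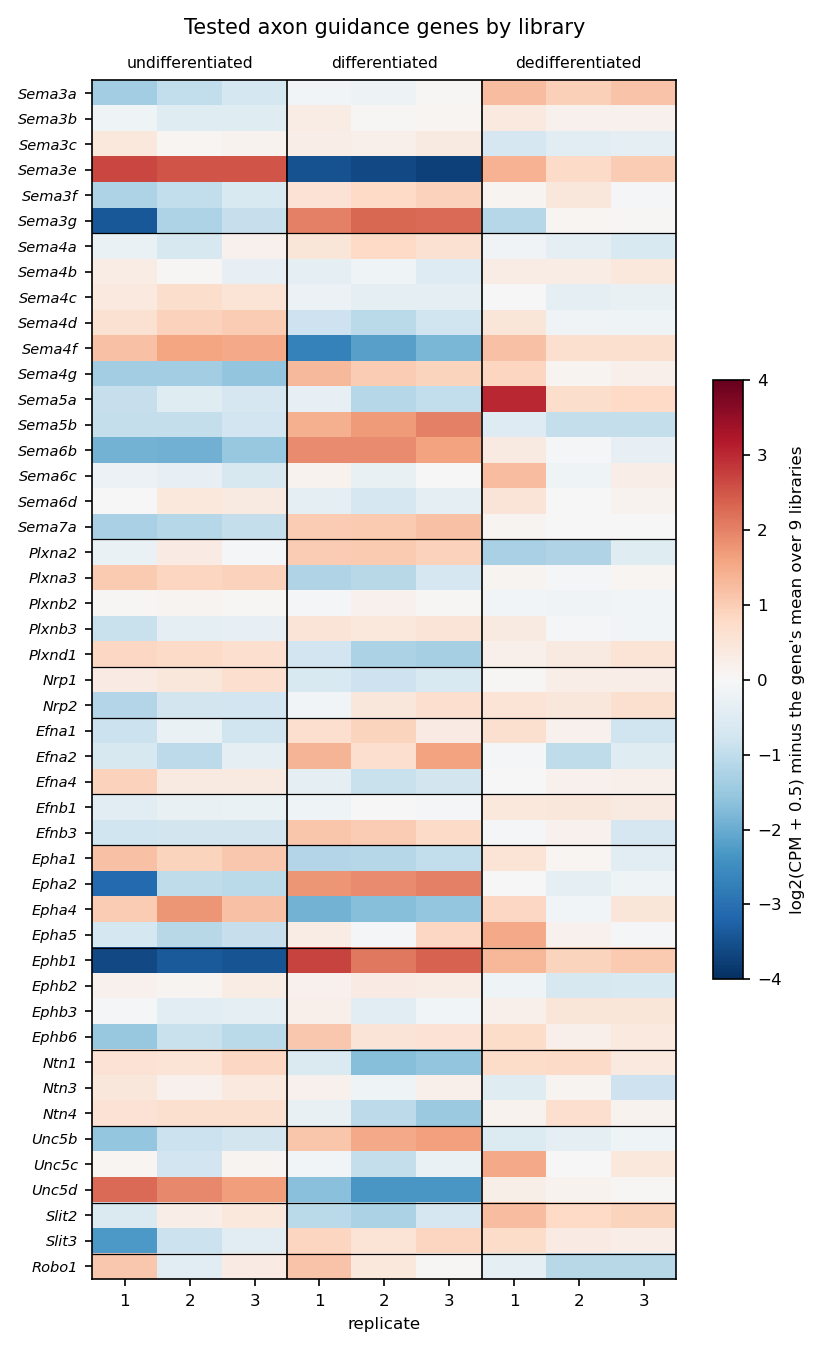
Each row is a tested member and each column a library, with colour showing log2(CPM + 0.5) relative to that gene's mean over the 9 libraries, cut at 4 in either direction. Genes of the same family take opposite courses, as for Sema3e and Sema3g, and the libraries of a stage mostly share their colour.

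Class 3 semaphorins, the secreted ligands, included the most abundant member and several of the widest changes. Of 6 tested, 4 rose and 1 fell with dbcAMP, 2 rose and 2 fell after withdrawal, and 3 were higher and 2 lower in dedifferentiated than in undifferentiated cells. Throughout, the values of a stage are listed in the order of replicates 1 to 3. Sema3e, which binds plexin-D1 without a neuropilin, had 441, 394 and 399.7 CPM in undifferentiated, 5.67, 5.17 and 4.75 in differentiated and 181, 118 and 139.8 in dedifferentiated cells. No library of differentiated cells came near the other stages, and the dedifferentiated libraries lay between them. Sema3e fell with dbcAMP (log2 change -6.37, SE 0.19, edgeR adjusted p = 2.88e-09), an 82.7-fold decrease, and rose after withdrawal (log2 change 4.83, SE 0.18, edgeR adjusted p = 3.34e-08). It remained lower than in undifferentiated cells (log2 change -1.54, SE 0.14, edgeR adjusted p = 2.39e-05). Its 411 ± 25.6, 5.2 ± 0.462 and 146 ± 32.1 CPM (mean ± SD, n = 3 per stage) show how small the spread was beside these steps.

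Sema3g, a ligand that signals mainly through neuropilin-2, took the opposite course. Its levels were 17.8, 81.4 and 101 CPM in undifferentiated, 784, 941 and 937 in differentiated and 87.1, 203 and 200.5 in dedifferentiated cells. All differentiated libraries lay far above the rest, while undifferentiated replicate 1 was low for its group and the dedifferentiated range overlapped the undifferentiated one. Sema3g rose 12.8-fold with dbcAMP (log2 change 3.68, SE 0.52, edgeR adjusted p = 0.000128) and fell after withdrawal (log2 change -2.43, SE 0.49, edgeR adjusted p = 0.00233). Dedifferentiated and undifferentiated cells were not called apart (log2 change 1.26, SE 0.48, edgeR adjusted p = 0.0745), but were without dedifferentiated replicate 1, where the log2 change was 1.54 (edgeR adjusted p = 0.041; the left-out fits ranged from 0.041 to 0.207) and with no filter on low counts.

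Sema3a, the repulsive ligand of neuropilin-1, rose at each step. The libraries held 3.71, 5.1 and 6.28 CPM in undifferentiated, 9.72, 8.95 and 10.8 in differentiated and 25.5, 20.6 and 23.9 in dedifferentiated cells. Neither neighbouring pair of stages overlapped. The increases were 0.90 (SE 0.19, edgeR adjusted p = 0.00167) with dbcAMP and 1.26 (SE 0.17, edgeR adjusted p = 0.000187) after withdrawal, both in log2 units. In sum, dedifferentiated cells had 4.48 times the undifferentiated level (log2 change 2.16, SE 0.18, edgeR adjusted p = 1.36e-05).

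Sema3b, a secreted semaphorin also described as a tumour suppressor, had the highest counts of all members and alone took 0.235% to 0.435% of each library's counts. Levels were 2925, 2396 and 2350.4 CPM in undifferentiated, 4061, 3410.3 and 3482 in differentiated and 4347, 3779.9 and 3784 in dedifferentiated cells. The undifferentiated libraries were lowest, without overlap with either other stage. It rose with dbcAMP (log2 change 0.45, SE 0.13, edgeR adjusted p = 0.0127), although that call was lost without undifferentiated replicate 2 or 3 (edgeR adjusted p = 0.0697 and 0.0566; range over all left-out libraries 0.0027 to 0.0697). The step after withdrawal was not called (log2 change 0.13, SE 0.13, edgeR adjusted p = 0.432), and dedifferentiated cells were higher than undifferentiated ones (log2 change 0.58, SE 0.13, edgeR adjusted p = 0.00747).

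The remaining class 3 members were Sema3c and Sema3f. Sema3c, a ligand that acts on neural crest and vascular cells, averaged 370.2 ± 48.5, 386 ± 20.1 and 228 ± 24.3 CPM at the 3 stages in order. It fell after withdrawal (log2 change -0.75, SE 0.12, edgeR adjusted p = 0.000457), and its change with dbcAMP was not called (log2 change -0.00447, SE 0.12, edgeR adjusted p = 0.977). Sema3f, a neuropilin-2 ligand, had 5 counts in all over the undifferentiated libraries and 0, 0.0961 and 0.262 CPM in undifferentiated, 1.25, 1.54 and 1.73 in differentiated and 0.763, 1.09 and 0.602 in dedifferentiated cells. It rose with dbcAMP (log2 change 3.40, SE 0.63, edgeR adjusted p = 0.000859), and without undifferentiated replicate 3 the log2 change was 4.74. Its dedifferentiated level was also above the undifferentiated one (log2 change 2.51, SE 0.69, edgeR adjusted p = 0.0196). That call was lost without undifferentiated replicate 2 or dedifferentiated replicate 2 and the log2 change became 3.86 without undifferentiated replicate 3 (edgeR adjusted p over the left-out fits 0.014 to 0.0666).

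The 12 membrane-bound or anchored semaphorins of classes 4 to 7 were all tested. With dbcAMP 5 rose and 5 fell, after withdrawal 5 rose and 5 fell, and between dedifferentiated and undifferentiated cells 4 were higher and 3 lower. Sema6b, a transmembrane ligand of A-class plexins, had 1.37, 1.35 and 1.9 CPM in undifferentiated, 25, 25.1 and 20.7 in differentiated and 8.31, 6.06 and 5.04 in dedifferentiated cells. The stages did not overlap in any pairing, and the differentiated libraries were highest. Sema6b rose 14.4-fold with dbcAMP (log2 change 3.85, SE 0.24, edgeR adjusted p = 2.6e-07), fell after withdrawal (log2 change -1.85, SE 0.20, edgeR adjusted p = 4.05e-05) and stayed above the undifferentiated level (log2 change 2.00, SE 0.25, edgeR adjusted p = 0.000181).

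Both class 5 semaphorins, transmembrane proteins with thrombospondin repeats, were near the limit of detection at some stages. Sema5b had 0, 0 and 0.0654 CPM in undifferentiated, 2.06, 2.62 and 3.39 in differentiated and 0.17, 0 and 0 in dedifferentiated cells. It was above the 3-count floor only in the differentiated libraries. Those held 117 counts against 1 in undifferentiated cells, a ratio of CPM of 104 (95% counting interval 18.4 to 4153), and against 2 in dedifferentiated cells, a ratio of 48.1 (13.0 to 402). Such intervals cover counting error only. edgeR called Sema5b higher with dbcAMP (adjusted p = 6.89e-05) and lower after withdrawal (adjusted p = 0.000195). The fitted log2 changes, 6.19 and -5.33, have no firm size: they were 8.07 without undifferentiated replicate 3, and -8.10 without dedifferentiated replicate 1.

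Sema5a, a ligand of plexin-B3, was instead a gene of dedifferentiated cells, with 0.0806, 0.288 and 0.196 CPM in undifferentiated, 0.368, 0 and 0.0617 in differentiated and 8.31, 1.29 and 1.43 in dedifferentiated cells. Dedifferentiated replicate 1 was well above replicates 2 and 3, and even these exceeded every library of the other stages. Sema5a rose after withdrawal (log2 change 4.63, SE 1.01, edgeR adjusted p = 0.00361) and was higher than in undifferentiated cells (log2 change 4.21, SE 0.99, edgeR adjusted p = 0.00914). Without dedifferentiated replicate 1 these log2 changes were 3.21 and 2.76, and without differentiated replicate 1 the first was 6.42. Every left-out fit kept both calls, with edgeR adjusted p of 0.00319 to 0.0191 and 0.00802 to 0.0372.

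Sema4c, a transmembrane ligand of plexin-B2, had the most counts of these classes. The libraries had 808, 1001 and 913 CPM in undifferentiated, 523, 481 and 485 in differentiated and 629, 480.0 and 503 in dedifferentiated cells. Every undifferentiated library was above every other one, and the 2 later stages overlapped. Sema4c fell with dbcAMP (log2 change -0.93, SE 0.12, edgeR adjusted p = 6.45e-05), was not called after withdrawal (log2 change 0.13, SE 0.12, edgeR adjusted p = 0.402) and stayed lower in dedifferentiated than in undifferentiated cells (log2 change -0.80, SE 0.12, edgeR adjusted p = 0.000598).

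The next genes, Sema4f, Sema4g and Sema7a, were chosen for fuller values after these had been seen. Sema4f, a transmembrane semaphorin, had 232, 305 and 295 CPM in undifferentiated, 15.5, 22.3 and 28.6 in differentiated and 231, 162 and 160.0 in dedifferentiated cells. Its values in differentiated cells were lowest, without overlap. It fell 13-fold with dbcAMP (log2 change -3.70, SE 0.22, edgeR adjusted p = 2.3e-07) and rose after withdrawal (log2 change 3.07, SE 0.22, edgeR adjusted p = 2.23e-06). Its lower level in dedifferentiated than in undifferentiated cells (log2 change -0.63, SE 0.20, edgeR adjusted p = 0.0345) was no longer called without undifferentiated replicate 2 or 3 or dedifferentiated replicate 2 or 3 (edgeR adjusted p over the left-out fits 0.01 to 0.125).

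Sema7a, a GPI-anchored semaphorin that binds plexin-C1 and integrins, had 37.1, 40.8 and 46.8 CPM in undifferentiated, 184, 189.8 and 207 in differentiated and 97.7, 92.1 and 92.9 in dedifferentiated cells. The 3 stages did not overlap, and the differentiated one was highest. Sema7a rose with dbcAMP (log2 change 2.16, SE 0.0875, edgeR adjusted p = 1.58e-08), fell after withdrawal (log2 change -1.02, SE 0.0839, edgeR adjusted p = 5.64e-06) and ended above the undifferentiated level (log2 change 1.13, SE 0.0863, edgeR adjusted p = 7.16e-06). Sema4g, another transmembrane member, followed the same order with 22.6 ± 1.53, 133 ± 18.6 and 85.2 ± 25.5 CPM. Its rise with dbcAMP was 2.50 on the log2 scale (SE 0.20, edgeR adjusted p = 1.98e-06). Its fall after withdrawal (log2 change -0.63, SE 0.19, edgeR adjusted p = 0.0187) was lost without differentiated replicate 1 or dedifferentiated replicate 2 or 3 (edgeR adjusted p over the left-out fits 0.000554 to 0.077).

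The other 5 genes of these classes are given in brief. Sema4d, a ligand of B-class plexins, fell with dbcAMP (log2 change -1.88, SE 0.20) and rose after withdrawal (1.05, SE 0.20), from 27.8 ± 3.97, 7.88 ± 0.883 and 16.2 ± 4.49 CPM. Sema6d, which binds A-class plexins, did likewise (-0.80, SE 0.15, then 0.71, SE 0.15). Sema4b fell by a smaller amount (log2 change -0.45, SE 0.17, edgeR adjusted p = 0.0383) with overlapping libraries, a call lost without undifferentiated replicate 1 or 2, differentiated replicate 1 or 3 or dedifferentiated replicate 3 (edgeR adjusted p 0.00343 to 0.16). It rose after withdrawal (log2 change 0.71, SE 0.17, edgeR adjusted p = 0.00552). Sema4a, at 0.946 ± 0.402, 2.09 ± 0.279 and 0.805 ± 0.208 CPM, was called higher with dbcAMP (log2 change 1.04, SE 0.38, edgeR adjusted p = 0.0334). Its call was lost in 5 of the 9 left-out fits, those without undifferentiated replicate 1 or 2, differentiated replicate 2 or 3 or dedifferentiated replicate 2 (edgeR adjusted p 0.0223 to 0.126). It fell after withdrawal (log2 change -1.36, SE 0.39, edgeR adjusted p = 0.0157), but not without differentiated replicate 2 or dedifferentiated replicate 3 (edgeR adjusted p 0.0156 to 0.0723). Sema6c, a further class 6 ligand, was not called in any comparison and averaged 4.94 ± 0.784, 6.4 ± 1.03 and 9.95 ± 5.45 CPM. Its dedifferentiated level was called higher than the undifferentiated one without dedifferentiated replicate 2 (edgeR adjusted p = 0.0239, range 0.0239 to 0.272) and in DESeq2's Wald test, and higher than the differentiated one without the same library (edgeR adjusted p = 0.042, range 0.042 to 0.71).

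**Figure D2:**
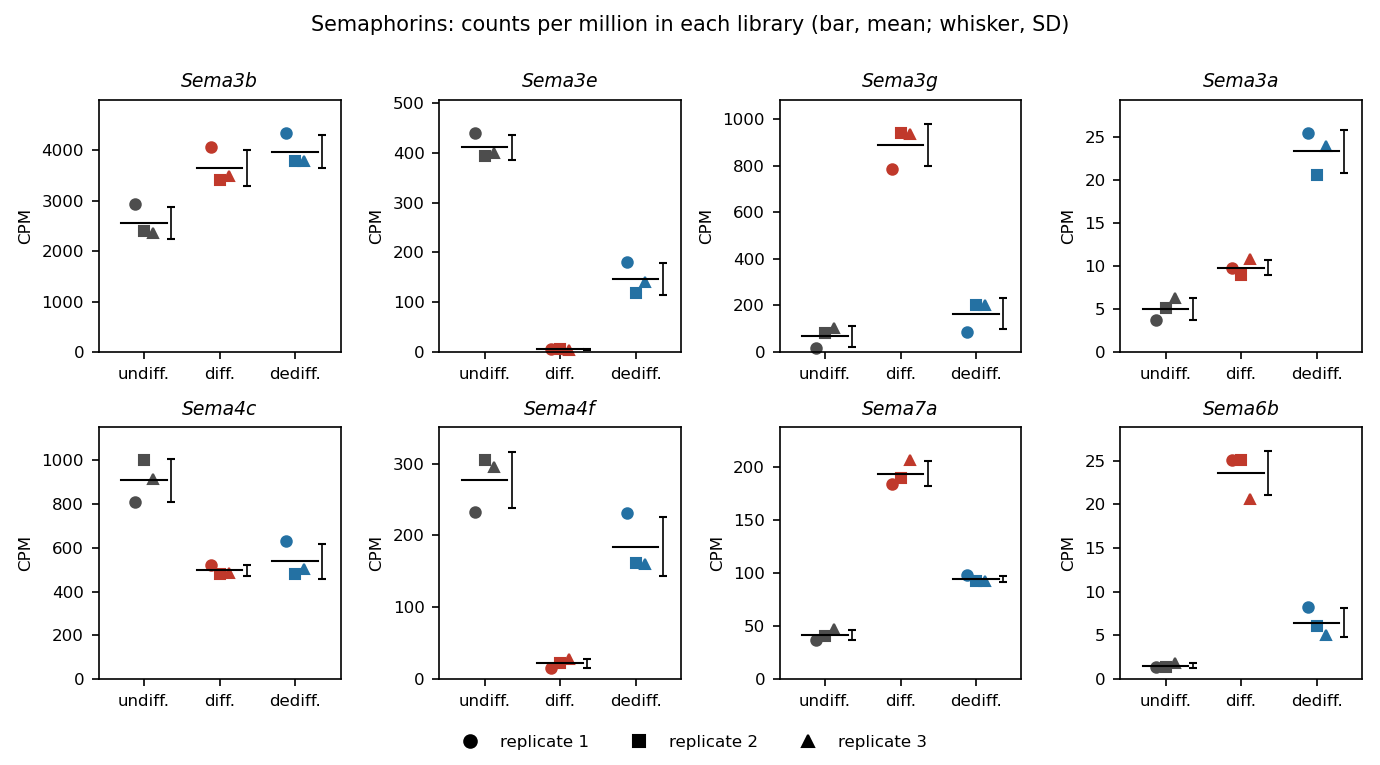
Levels of 8 semaphorins in CPM on linear axes from 0, with a point per replicate, a bar at the mean and whiskers of 1 SD (n = 3) at each stage. Sema3e and Sema4f are lowest, and Sema3g, Sema6b and Sema7a highest, in the differentiated libraries, while Sema3a climbs over the 3 stages.

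Of 5 plexins, the transmembrane receptors of semaphorins, 2 rose and 2 fell with dbcAMP. After withdrawal 2 rose and 1 fell, and dedifferentiated cells had 1 plexin higher and 3 lower than undifferentiated cells. Plxnd1, the receptor of Sema3e, had 807, 772 and 719.6 CPM in undifferentiated, 269, 190.0 and 180.3 in differentiated and 521, 583 and 661 in dedifferentiated cells. Undifferentiated libraries were highest and differentiated ones lowest, without overlap. Plxnd1 fell 3.75-fold with dbcAMP (log2 change -1.91, SE 0.16, edgeR adjusted p = 2.62e-06) and rose after withdrawal (log2 change 1.47, SE 0.16, edgeR adjusted p = 3.54e-05). Both steps had the direction seen for its ligand Sema3e. The remaining difference to undifferentiated cells was not called (log2 change -0.43, SE 0.15, edgeR adjusted p = 0.0574), but was without differentiated replicate 1 (edgeR adjusted p = 0.0112, range over left-out libraries 0.0112 to 0.134). In all, 6 of 19 alternatives called it, among them DESeq2's Wald test.

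Plxna3, a partner of neuropilins in class 3 semaphorin signalling, had 363, 316 and 332 CPM in undifferentiated, 75.5, 81.6 and 111 in differentiated and 191, 169 and 185 in dedifferentiated cells. The 3 stages did not overlap. It fell with dbcAMP (log2 change -1.98, SE 0.13, edgeR adjusted p = 5.08e-07), rose after withdrawal (log2 change 1.04, SE 0.13, edgeR adjusted p = 0.000104) and stayed below the undifferentiated level (log2 change -0.94, SE 0.13, edgeR adjusted p = 0.000363). Plxna2, an A-class plexin that binds class 6 semaphorins, was scarce, with 1.05, 1.83 and 1.31 CPM in undifferentiated, 3.24, 3.32 and 3.02 in differentiated and 0.254, 0.298 and 0.827 in dedifferentiated cells. The differentiated libraries were highest. Plxna2 fell after withdrawal (log2 change -2.71, SE 0.43, edgeR adjusted p = 0.000541), and the log2 change was -3.47 without dedifferentiated replicate 3. Its rise with dbcAMP (log2 change 1.14, SE 0.37, edgeR adjusted p = 0.022) was lost without undifferentiated replicate 1 or 3 or differentiated replicate 2 (edgeR adjusted p 0.012 to 0.0696). Its deficit against undifferentiated cells (log2 change -1.57, SE 0.46, edgeR adjusted p = 0.0274) was lost without undifferentiated replicate 2 or 3 or dedifferentiated replicate 1 or 2, and was -2.33 without dedifferentiated replicate 3 (edgeR adjusted p 0.00972 to 0.0832).

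Among the B-class plexins, Plxnb3, a receptor of Sema5a, averaged 206 ± 40.1, 411 ± 17 and 309 ± 58.8 CPM and rose with dbcAMP (log2 change 0.94, SE 0.15, edgeR adjusted p = 0.00034). Its fall after withdrawal just missed a call (log2 change -0.39, edgeR adjusted p = 0.0526) and was called in 6 of 19 alternatives. Those include DESeq2's Wald test and the fits without undifferentiated or dedifferentiated replicate 1 (edgeR adjusted p over the left-out fits 0.00856 to 0.179). Plxnb3 was still higher in dedifferentiated than in undifferentiated cells (log2 change 0.54, SE 0.15, edgeR adjusted p = 0.0212), a call lost without undifferentiated replicate 1 or dedifferentiated replicate 1 (edgeR adjusted p 0.0231 to 0.0763). Plxnb2, the receptor of Sema4c, was the flattest plexin with 328 ± 9.08, 325 ± 24.4 and 289 ± 6.14 CPM. Its single call, lower in dedifferentiated than in undifferentiated cells (log2 change -0.23, SE 0.0749, edgeR adjusted p = 0.0384), was lost in 6 of 9 left-out fits, those without any 1 undifferentiated library, differentiated replicate 3 or dedifferentiated replicate 2 or 3 (edgeR adjusted p 0.0325 to 0.103).

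The neuropilins, the ligand-binding co-receptors of class 3 semaphorins, moved apart. Nrp1, which binds Sema3a and also VEGF, had 27.8, 30.6 and 36.1 CPM in undifferentiated, 14.4, 12.4 and 14.5 in differentiated and 23, 26.9 and 26.6 in dedifferentiated cells. The differentiated group was lowest, without overlap. Nrp1 fell with dbcAMP (log2 change -1.25, SE 0.12, edgeR adjusted p = 9.63e-06) and rose after withdrawal (log2 change 0.90, SE 0.12, edgeR adjusted p = 0.000213). The dedifferentiated libraries were all below the undifferentiated ones, and the difference just missed a call (log2 change -0.35, SE 0.12, edgeR adjusted p = 0.0508). It was called without undifferentiated replicate 1 and without differentiated replicate 2 (edgeR adjusted p 0.0384 to 0.179 over the left-out fits). In all, 6 of 19 alternatives called it, among them DESeq2's Wald test.

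Nrp2, the neuropilin that binds Sema3f and Sema3g, had 34.5, 47.2 and 45.9 CPM in undifferentiated, 73.3, 108 and 124 in differentiated and 115, 108 and 122 in dedifferentiated cells. Undifferentiated libraries were lowest, and the 2 later stages overlapped. Nrp2 rose with dbcAMP (log2 change 1.20, SE 0.17, edgeR adjusted p = 0.000129), showed no called change after withdrawal (log2 change 0.19, SE 0.16, edgeR adjusted p = 0.362) and was 2.62-fold higher in dedifferentiated than in undifferentiated cells (log2 change 1.39, SE 0.17, edgeR adjusted p = 0.000167).

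**Figure D3:**
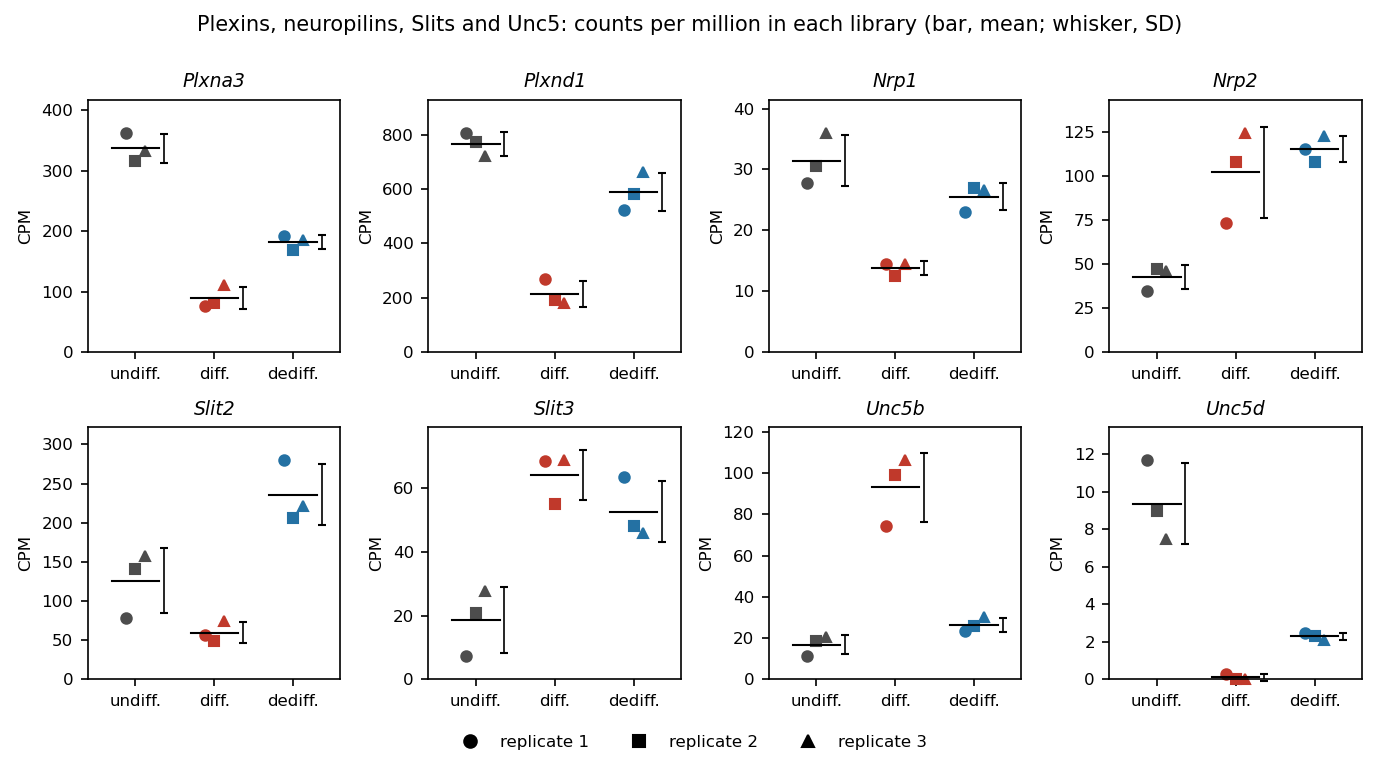
Levels in CPM of plexins, neuropilins, Unc5 receptors and the Slit ligands on linear axes from 0, with a point per replicate, a bar at the mean and whiskers of 1 SD (n = 3). Plxna3, Plxnd1, Nrp1 and Unc5d are lowest in differentiated cells, Unc5b is highest there, and Nrp2 is higher at the 2 later stages.

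Ephrin-A ligands, which are held by a GPI anchor, were lowly expressed. All 3 that were tested changed with dbcAMP, 2 up and 1 down. After withdrawal 1 rose and 1 fell. edgeR called none between dedifferentiated and undifferentiated cells, where 1, Efna4, had an unadjusted p under 0.05 and DESeq2 called 0. Efna2, an ephrin-A of the developing brain, had 0.403, 0.192 and 0.589 CPM in undifferentiated, 3.17, 1.77 and 3.82 in differentiated and 0.848, 0.199 and 0.527 in dedifferentiated cells. Its differentiated libraries were highest without overlap. Efna2 rose with dbcAMP (log2 change 2.75, SE 0.52, edgeR adjusted p = 0.00103) and fell after withdrawal (log2 change -2.42, SE 0.51, edgeR adjusted p = 0.00299). Efna4, another GPI-anchored ephrin, went the other way with 21.8, 14.4 and 14.5 CPM in undifferentiated, 8.55, 5.87 and 6.48 in differentiated and 11.3, 12.6 and 12.9 in dedifferentiated cells. It was lowest in all differentiated libraries. Efna4 fell with dbcAMP (log2 change -1.35, SE 0.22, edgeR adjusted p = 0.000315) and rose after withdrawal (log2 change 0.83, SE 0.22, edgeR adjusted p = 0.0104). Efna1, the main ligand of EphA2, had 0.483, 0.961 and 0.523 CPM in undifferentiated, 2.36, 2.78 and 1.73 in differentiated and 2.29, 1.49 and 0.527 in dedifferentiated cells. Its differentiated libraries were above the undifferentiated ones and overlapped the dedifferentiated ones. The rise with dbcAMP (log2 change 1.76, SE 0.53, edgeR adjusted p = 0.0146) was lost without undifferentiated replicate 3 (edgeR adjusted p = 0.0581, range 0.00583 to 0.0581). Between dedifferentiated and undifferentiated cells Efna1 was called higher without dedifferentiated replicate 3 (log2 change 1.52, edgeR adjusted p = 0.0477, range 0.0477 to 0.537).

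Ephrin-B ligands span the membrane and can signal into the cell that carries them. Efnb1 rose over the stages in small steps, with 159, 171 and 175 CPM in undifferentiated, 187, 208 and 203 in differentiated and 283, 289 and 273 in dedifferentiated cells. The stages did not overlap. Efnb1 rose after withdrawal (log2 change 0.51, SE 0.0694, edgeR adjusted p = 0.000171) and was 1.62-fold higher than in undifferentiated cells (log2 change 0.70, SE 0.0697, edgeR adjusted p = 4.09e-05). Its rise with dbcAMP (log2 change 0.18, SE 0.0695, edgeR adjusted p = 0.0416) was lost in 15 of 19 alternatives, among them 8 of the 9 left-out fits, all but that without differentiated replicate 1 (edgeR adjusted p 0.0369 to 0.133). Efnb3, at first near the detection limit, had 0.161, 0.192 and 0.196 CPM in undifferentiated, 1.99, 1.85 and 1.48 in differentiated and 0.593, 0.795 and 0.226 in dedifferentiated cells. The differentiated libraries were highest. Efnb3 rose with dbcAMP (log2 change 3.15, SE 0.52, edgeR adjusted p = 0.000406) and fell after withdrawal (log2 change -1.73, SE 0.45, edgeR adjusted p = 0.0094). Its higher level in dedifferentiated than in undifferentiated cells was not called (log2 change 1.42, SE 0.62, edgeR adjusted p = 0.111), but was without dedifferentiated replicate 3 (edgeR adjusted p = 0.0482, range 0.0482 to 0.316).

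The EphA receptors, kinases that mostly bind ephrin-A ligands, split evenly, with 2 of 4 higher and 2 lower in dbcAMP. After withdrawal 2 rose and 1 fell, and against undifferentiated cells 2 were higher and 2 lower. Epha2, a receptor of ephrin-A1 known from epithelia, held the most counts of its class, with 3.22, 15.3 and 14.6 CPM in undifferentiated, 108, 119 and 129.7 in differentiated and 32, 24.5 and 28.1 in dedifferentiated cells. Differentiated libraries were highest by far, and undifferentiated replicate 1 was the lowest of all. Epha2 rose 10.4-fold with dbcAMP (log2 change 3.38, SE 0.37, edgeR adjusted p = 1.81e-05) and fell after withdrawal (log2 change -2.06, SE 0.34, edgeR adjusted p = 0.000637). It stayed above the undifferentiated level (log2 change 1.31, SE 0.37, edgeR adjusted p = 0.0208), a call lost without dedifferentiated replicate 1 or 3 (edgeR adjusted p 0.000767 to 0.06).

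Epha4, an EphA receptor that also binds some ephrin-B ligands, had 49.3, 84.1 and 55.9 CPM in undifferentiated, 6.26, 7.1 and 7.96 in differentiated and 43.7, 22.6 and 34.2 in dedifferentiated cells. All values in differentiated cells were lowest and the other stages did not overlap. Epha4 fell 9.22-fold with dbcAMP (log2 change -3.20, SE 0.27, edgeR adjusted p = 2.52e-06), rose after withdrawal (log2 change 2.25, SE 0.27, edgeR adjusted p = 6.9e-05) and remained lower than in undifferentiated cells (log2 change -0.96, SE 0.24, edgeR adjusted p = 0.0123).

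Epha1, the founding member of the Eph family, was scarce, with 3.14, 2.5 and 2.88 CPM in undifferentiated, 0.221, 0.232 and 0.308 in differentiated and 1.87, 1.19 and 0.677 in dedifferentiated cells. Differentiated libraries were again lowest. Epha1 fell with dbcAMP (log2 change -3.49, SE 0.46, edgeR adjusted p = 7.98e-05) and rose after withdrawal (log2 change 2.24, SE 0.50, edgeR adjusted p = 0.00399). Its lower level in dedifferentiated than in undifferentiated cells (log2 change -1.24, SE 0.38, edgeR adjusted p = 0.0324) was lost without any 1 undifferentiated library and without dedifferentiated replicate 2 or 3 (edgeR adjusted p 0.0126 to 0.121). Epha1 overlaps the gene Zyx in the RefSeq annotation, and whether the counting used strand is not given in the sources used here, so its reads could not be assigned with certainty.

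Epha5, an EphA receptor of the nervous system, had 3 counts in the undifferentiated libraries together and 0.161, 0 and 0.0654 CPM in undifferentiated, 0.81, 0.54 and 1.42 in differentiated and 2.54, 0.696 and 0.527 in dedifferentiated cells. Both later stages lay above the first, and dedifferentiated replicate 1 was the highest. The counts gave a CPM ratio of 12.2 for differentiated (41 counts, 95% counting interval 3.89 to 61.5) and 15.9 for dedifferentiated cells (44 counts, 5.10 to 80.0). edgeR called both (adjusted p = 0.013 and 0.014). The second call was lost without undifferentiated replicate 3 (adjusted p = 0.0531, range 0.0112 to 0.0531). The fitted log2 change, 3.80, was 2.73 without dedifferentiated replicate 1 and 4.69 without undifferentiated replicate 1. That for dbcAMP, 3.37, was 4.26 without undifferentiated replicate 1.

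All 4 EphB receptors, which bind ephrin-B ligands, were tested, and 2 rose with dbcAMP. After withdrawal 1 rose and 2 fell. Against undifferentiated cells 3 were higher and 1 lower. Ephb1 was near 0 in undifferentiated cells only, with 0, 0.0961 and 0.0654 CPM in undifferentiated, 39.3, 26.2 and 31 in differentiated and 15, 11 and 12.2 in dedifferentiated cells. No undifferentiated library reached the 3-count floor, and every later library was far above it. The 1376 counts in differentiated cells stood against 2 in undifferentiated cells, a CPM ratio of 613 (95% counting interval 169 to 5068), and the 450 counts in dedifferentiated cells gave a ratio of 244 (67.1 to 2020). edgeR called both differences (adjusted p = 2.55e-08 and 1.12e-06) and the fall after withdrawal (log2 change -1.32, SE 0.19, edgeR adjusted p = 0.000305). At the dedifferentiated stage its level was below that of differentiated cells and far above that of undifferentiated ones.

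Ephb6, a receptor whose kinase domain is inactive, had 10.7, 16.5 and 14.5 CPM in undifferentiated, 66, 44.9 and 47.2 in differentiated and 52.7, 35.8 and 41 in dedifferentiated cells. The undifferentiated libraries were lowest and the later stages overlapped. Ephb6 rose with dbcAMP (log2 change 1.87, SE 0.21, edgeR adjusted p = 2.29e-05), was not called after withdrawal (log2 change -0.28, SE 0.20, edgeR adjusted p = 0.273) and stayed higher (log2 change 1.59, SE 0.21, edgeR adjusted p = 0.000277). Ephb2, described in injured nerve as the Schwann cell receptor of fibroblast ephrin-B, had 45.6, 44 and 50.2 CPM in undifferentiated, 46.1, 50.5 and 50.3 in differentiated and 36.3, 25.9 and 26.6 in dedifferentiated cells. The first 2 stages overlapped and the dedifferentiated libraries were lowest. Ephb2 fell after withdrawal (log2 change -0.71, SE 0.13, edgeR adjusted p = 0.00111) and was lower than in undifferentiated cells (log2 change -0.70, SE 0.13, edgeR adjusted p = 0.00217). Ephb3, its close relative, was highest in dedifferentiated cells, with 88.7, 69.6 and 72.7 CPM in undifferentiated, 107, 67.3 and 85.1 in differentiated and 107, 129.9 and 129 in dedifferentiated cells. The differentiated range ended just below the dedifferentiated one, since replicate 1 was high in the former and low in the latter. Its rise after withdrawal (log2 change 0.51, SE 0.17, edgeR adjusted p = 0.029) was lost without differentiated replicate 2 or 3 or dedifferentiated replicate 2 or 3 (edgeR adjusted p 0.0049 to 0.096). The difference to undifferentiated cells (log2 change 0.61, SE 0.17, edgeR adjusted p = 0.0197) was lost without undifferentiated replicate 2 or 3 or dedifferentiated replicate 2 or 3 (edgeR adjusted p 0.00721 to 0.0817).

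**Figure D4:**
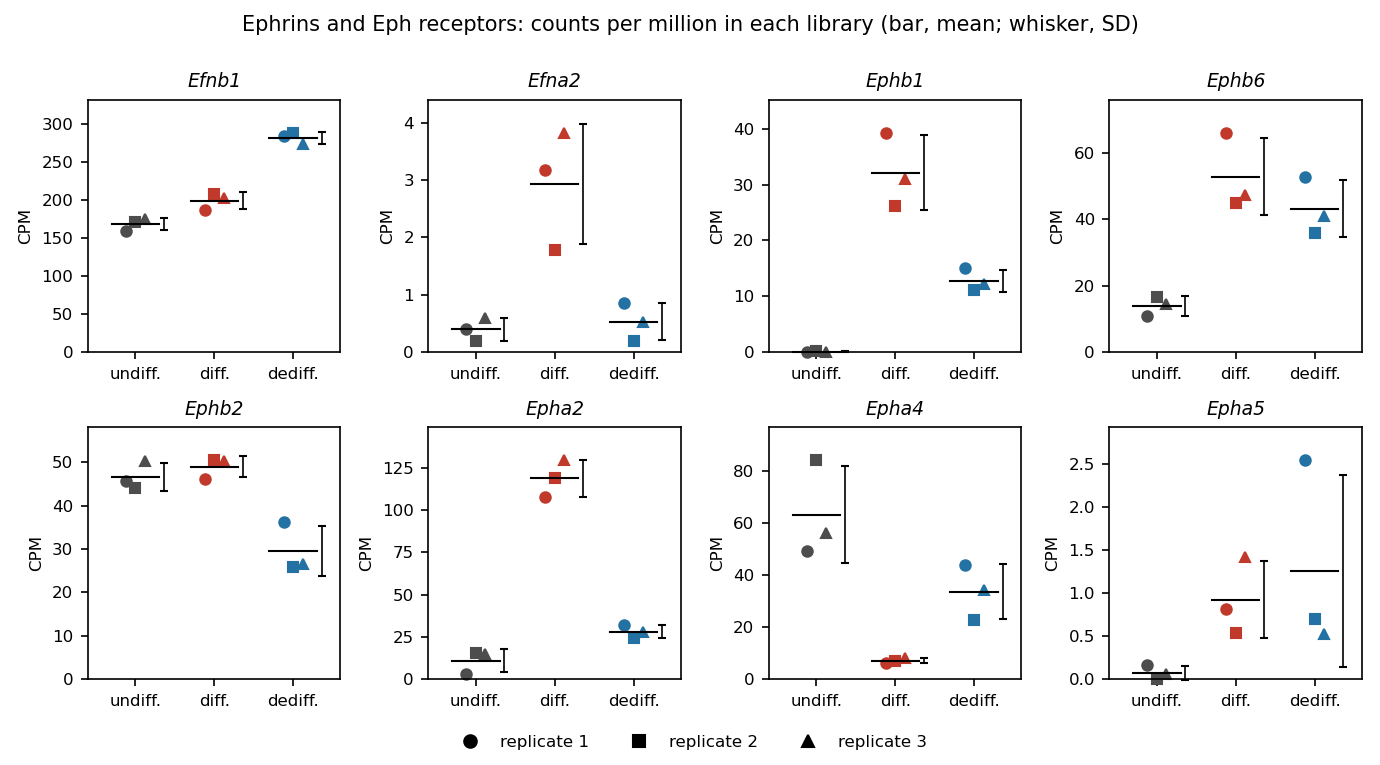
Levels in CPM of ephrin ligands and Eph receptors on linear axes from 0, with a point per replicate, a bar at the mean and whiskers of 1 SD (n = 3). Ephb1 and Epha2 are highest in the differentiated libraries, Epha4 lowest there, and Efnb1 increases over the 3 stages.

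Cyclic AMP is known to act, among other routes, through protein kinase A and the transcription factor CREB, which binds the cyclic AMP response element. The RefSeq promoter windows (250 bases before to 50 after the start, assembly GRCr8) were searched on both strands for that element, TGACGTCA, and its core CGTCA, which the full element contains. Windows were given for 46 of the 59 members (47 windows, since Robo1 has 2). The full element was in 1 of the 47, that of Epha2 (2.13%, against 1.83% of all 33469 windows). The core was in 9 of the 47 (19.1%, against 21.2%). It was in 5 of 17 windows of members that rose with dbcAMP (29.4%) and in 2 of 11 of those that fell (18.2%). The AP-1-like pattern TGANTCA, with any base allowed at N, was in 1 window (2.13%, against 7.33%). That window was of Epha10, which had too few counts to test. Over the 47 windows together, the members' shares were thus near or below those of all promoters. The core's share among members that rose was above that of all promoters, on few windows, and the difference was not tested. The stretches around the matches before the start are shown for 5 genes described at length, to let the Epha2 element be compared with core-only matches in genes that rose (Ephb1, Slit3, Efnb1) and fell (Sema3e). Capitals mark the match, and a match is a description of letters, not of a binding site.
Epha2, chr5:158888547-158888614, plus strand, match 52 bases before the start: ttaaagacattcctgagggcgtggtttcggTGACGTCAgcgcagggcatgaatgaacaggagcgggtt
Ephb1, chr8:111823814-111823878, minus strand, match 89 bases before the start: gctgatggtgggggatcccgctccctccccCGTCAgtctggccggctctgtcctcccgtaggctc
Slit3, chr10:20075679-20075741, plus strand, match on the opposite strand 222 bases before the start: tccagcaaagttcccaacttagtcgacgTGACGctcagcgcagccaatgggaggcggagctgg
Efnb1, chrX:68297399-68297463, plus strand, match 100 bases before the start: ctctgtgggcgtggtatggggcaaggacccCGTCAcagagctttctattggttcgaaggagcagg
Sema3e, chr4:21510419-21510483, minus strand, match 79 bases before the start: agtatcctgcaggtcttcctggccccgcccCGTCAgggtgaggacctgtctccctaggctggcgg

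Netrins, laminin-related secreted guidance proteins, fell with dbcAMP in 2 of 3 tested genes and rose again in the same 2. edgeR called none between dedifferentiated and undifferentiated cells, where 1, Ntn3, had an unadjusted p under 0.05 and DESeq2 called 0. Ntn1, the classic attractant of DCC-bearing axons, had 2.26, 2.21 and 2.81 CPM in undifferentiated, 0.737, 0.0772 and 0.123 in differentiated and 2.63, 2.68 and 1.96 in dedifferentiated cells. Differentiated libraries were lowest, and replicate 1 was the highest of them. Ntn1 fell with dbcAMP (log2 change -3.01, SE 0.58, edgeR adjusted p = 0.00107) and rose after withdrawal (log2 change 2.95, SE 0.58, edgeR adjusted p = 0.00199). Without differentiated replicate 1 these log2 changes were -4.51 and 4.45. Ntn4, a netrin that binds laminin in basement membranes, had 3.95, 4.13 and 4.12 CPM in undifferentiated, 1.92, 0.926 and 0.555 in differentiated and 2.8, 4.18 and 2.78 in dedifferentiated cells. Every differentiated library was below all others. Ntn4 also fell (log2 change -1.91, SE 0.40, edgeR adjusted p = 0.00198) and rose again (log2 change 1.53, SE 0.41, edgeR adjusted p = 0.0109). Those log2 changes were -2.54 and 2.16 without differentiated replicate 1. Ntn3 was not called in any comparison and averaged 2.34 ± 0.289, 1.85 ± 0.337 and 1.25 ± 0.582 CPM. It was called lower in dedifferentiated than in undifferentiated cells without dedifferentiated replicate 2 (log2 change -1.42, edgeR adjusted p = 0.0296, range 0.0296 to 0.241) and when at least 10 counts were required in every library.

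The Unc5 netrin receptors changed in opposite directions. Unc5b, a dependence receptor also active in blood vessels, had 11.4, 18.6 and 20.4 CPM in undifferentiated, 74.4, 98.9 and 106 in differentiated and 23.1, 25.9 and 29.9 in dedifferentiated cells. Differentiated libraries were highest without overlap, and dedifferentiated libraries were just above the undifferentiated ones. Unc5b rose 5.33-fold with dbcAMP (log2 change 2.41, SE 0.19, edgeR adjusted p = 1.93e-06) and fell after withdrawal (log2 change -1.81, SE 0.19, edgeR adjusted p = 2.9e-05). The remaining difference to undifferentiated cells (log2 change 0.61, SE 0.20, edgeR adjusted p = 0.0396) was lost without undifferentiated replicate 1 or 2, differentiated replicate 2 or dedifferentiated replicate 2 or 3 (edgeR adjusted p 0.0302 to 0.133).

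Unc5d, an Unc5 receptor that also binds FLRT proteins, had 11.7, 8.94 and 7.46 CPM in undifferentiated, 0.295, 0 and 0 in differentiated and 2.46, 2.29 and 2.11 in dedifferentiated cells. The differentiated libraries held 4 counts in all, every one in replicate 1, and the dedifferentiated libraries lay between the other stages. edgeR called the fall with dbcAMP (adjusted p = 5.28e-06) and the rise after withdrawal (adjusted p = 0.000357). The fitted log2 changes of -6.56 and 4.47 depend on that library: they were -9.95 and 7.87 without it, and -5.92 and 3.84 without differentiated replicate 3. Unc5d stayed lower in dedifferentiated than in undifferentiated cells (log2 change -2.08, SE 0.40, edgeR adjusted p = 0.00296). Unc5c, the third tested receptor, had 1.59 ± 0.626, 1.24 ± 0.487 and 3.48 ± 2.3 CPM and was called higher after withdrawal only (log2 change 1.49, SE 0.52, edgeR adjusted p = 0.0374). That call was lost without differentiated replicate 2 or 3 or dedifferentiated replicate 1, whose absence left a log2 change of 0.82 (edgeR adjusted p 0.0221 to 0.192). It was also lost with the sequencing project as a covariate (edgeR adjusted p = 0.0512).

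Slits are large secreted proteins that repel Robo-bearing axons and cells. Slit2 had 78.5, 141 and 157 CPM in undifferentiated, 55.8, 48.5 and 74.4 in differentiated and 280.2, 206 and 221 in dedifferentiated cells. Differentiated libraries were lowest and dedifferentiated ones highest, with no overlap. Slit2 fell with dbcAMP (log2 change -1.13, SE 0.23, edgeR adjusted p = 0.00176) and rose 3.99-fold after withdrawal (log2 change 2.00, SE 0.24, edgeR adjusted p = 7.32e-05). It ended above the undifferentiated level (log2 change 0.87, SE 0.23, edgeR adjusted p = 0.0166), a call lost without dedifferentiated replicate 1 (edgeR adjusted p = 0.0632, range 0.016 to 0.0632).

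Slit3, the other Slit with enough counts, had 7.33, 20.8 and 27.7 CPM in undifferentiated, 68.5, 55.2 and 68.9 in differentiated and 63.6, 48.2 and 46 in dedifferentiated cells. Undifferentiated libraries were lowest, with replicate 1 below the other 2, and the later stages overlapped. Slit3 rose with dbcAMP (log2 change 1.73, SE 0.33, edgeR adjusted p = 0.0011), was not called after withdrawal (log2 change -0.28, SE 0.32, edgeR adjusted p = 0.499) and stayed higher than in undifferentiated cells (log2 change 1.46, SE 0.33, edgeR adjusted p = 0.00812). With dbcAMP, Slit2 was thus called lower and Slit3 higher.

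Of the Robos, the receptors of Slits, only Robo1 had enough counts to test, and it was scarce, with 1.77, 0.288 and 0.851 CPM in undifferentiated, 1.84, 0.926 and 0.617 in differentiated and 0.339, 0 and 0 in dedifferentiated cells. In dedifferentiated cells replicate 1 held all of its counts. edgeR called the fall after withdrawal (log2 change -3.18, SE 1.04, edgeR adjusted p = 0.0283), but not without differentiated replicate 1 or dedifferentiated replicate 2 or 3, and the log2 change was -6.84 without dedifferentiated replicate 1 (edgeR adjusted p 0.0154 to 0.0975). Against undifferentiated cells it was not called (log2 change -3.06, SE 1.06, edgeR adjusted p = 0.0511), but was without undifferentiated replicate 2, differentiated replicate 1 or dedifferentiated replicate 1, the last giving -6.76 (edgeR adjusted p 0.0267 to 0.158). In all, Robo1 was called lower there in 9 of 17 alternatives. Among them were DESeq2's Wald test, the fit with no filter on low counts and those with the project or the replicate number in the model.

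**Figure D5:**
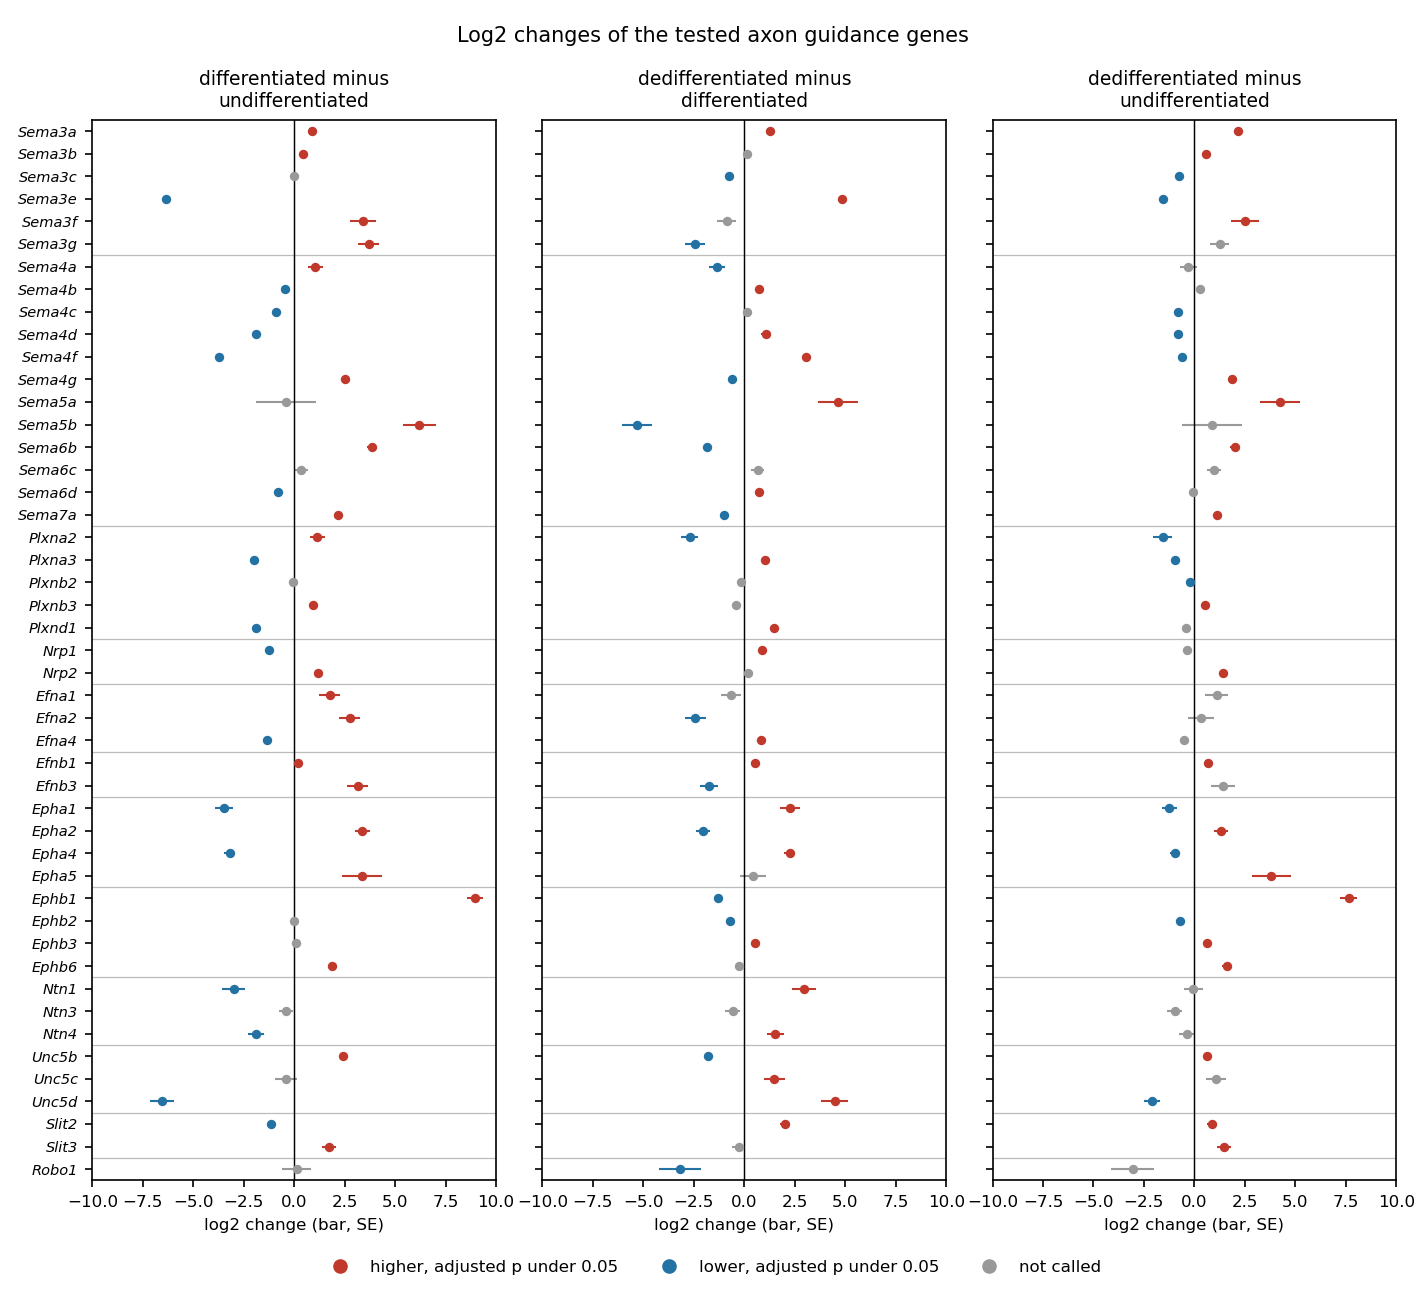
The log2 change of each tested member with its standard error in the 3 comparisons, red for called higher, blue for called lower and grey for not called. The largest absolute changes with dbcAMP are those of Ephb1, Unc5d, Sema3e and Sema5b, and all 4 have the opposite sign after withdrawal.

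The other 12 members had too few counts to test. Efna5 and Slit1 had none in any library. The highest count in a library was 14 for Efnb2, 6 for Robo2, 5 for Robo3 and Ntn5, 4 for Sema3d, 3 for Epha3, 2 for Epha10 and Robo4, and 1 for Epha7 and Unc5a. For these genes no difference was detectable at this depth.

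Grouped by their calls over the stages, 7 members fell with dbcAMP, rose after withdrawal and were still lower than in undifferentiated cells: Epha1, Epha4, Plxna3, Sema3e, Sema4d, Sema4f and Unc5d. This was the pattern of 5.91% of all tested genes. A further 7 fell and rose likewise but were not called apart from undifferentiated cells at the end (12.2% of all tested genes): Efna4, Nrp1, Ntn1, Ntn4, Plxnd1, Sema4b and Sema6d. In the opposite direction, 6 rose, fell and ended higher than at the start (Epha2, Ephb1, Sema4g, Sema6b, Sema7a and Unc5b; 5.75% of all tested genes), and 5 rose and fell with no call at the end (Efna2, Efnb3, Sema3g, Sema4a and Sema5b; 12.6%). Another 7 rose and showed no called fall, ending higher (6.45%): Epha5, Ephb6, Nrp2, Plxnb3, Sema3b, Sema3f and Slit3. Of the other 15, Efnb1 and Sema3a rose in both steps, Slit2 fell and then rose above its first level, and Plxna2 rose and then fell below it. With no call for dbcAMP, Ephb3, Sema5a and Unc5c rose, and Ephb2, Sema3c and Robo1 fell, after withdrawal. Of these, Ephb3 and Sema5a also ended higher, and Ephb2 and Sema3c lower, than in undifferentiated cells. Sema4c and Efna1 were called with dbcAMP and not after withdrawal, Plxnb2 only between the first and last stage, and Ntn3 and Sema6c nowhere. Calls in all 3 comparisons share libraries, so these groups are a description. Several also rest on calls that other fits lost. Of the 30 calls between dedifferentiated and undifferentiated cells, 14 held in every alternative, and that of Efnb1 with dbcAMP held in 4 of 19.

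Other genes of the same pathways were read from lists of co-receptors, adhesion partners and further ligands (22 of 30 rows tested) and of cytoplasmic effectors (58 of 62 rows tested). Of the 22 co-receptors and ligands, 10 rose and 7 fell with dbcAMP, 10 rose and 2 fell after withdrawal, and 7 were higher and 3 lower in dedifferentiated than in undifferentiated cells. The called shares were 77.3%, 54.5% and 45.5%, beside 59.6%, 46.4% and 29.4% of all tested genes. The effectors had 14 higher and 27 lower with dbcAMP, 14 higher and 13 lower after withdrawal, and 7 higher and 18 lower between dedifferentiated and undifferentiated cells. Their called shares were 70.7%, 46.6% and 43.1%, so that after withdrawal was that of all tested genes. Their median log2 changes were -0.22, 0.08 and -0.20, beside 0.05, -0.01 and 0.02 for all tested genes.

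Gpc1, a heparan sulphate proteoglycan that binds Slits, had 4218, 3969 and 3779 CPM in undifferentiated, 358, 312 and 335 in differentiated and 3006, 2679 and 2626 in dedifferentiated cells. The differentiated group was far below both others. Gpc1 fell 12.4-fold with dbcAMP (log2 change -3.64, SE 0.12, edgeR adjusted p = 4.07e-09) and rose after withdrawal (log2 change 3.06, SE 0.11, edgeR adjusted p = 3.38e-08). Dpysl3, a collapsin response mediator protein that acts on microtubules below semaphorin receptors, averaged 274 ± 48.1, 10.6 ± 4.51 and 105 ± 3.79 CPM and also fell (log2 change -4.75, SE 0.27, edgeR adjusted p = 1.6e-07) and rose again (log2 change 3.31, SE 0.26, edgeR adjusted p = 4.36e-06). Its relative Dpysl5 had the opposite course with 0.564, 0.288 and 0.131 CPM in undifferentiated, 50.2, 38.3 and 46.1 in differentiated and 16.1, 11.8 and 11.7 in dedifferentiated cells. It rose with dbcAMP (log2 change 7.05, SE 0.32, edgeR adjusted p = 3e-08) and was still higher in dedifferentiated than in undifferentiated cells (log2 change 5.30, SE 0.34, edgeR adjusted p = 2.43e-06). Without undifferentiated replicate 1 these log2 changes were 7.74 and 5.99.

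Mical1, the plexin effector that oxidises actin, averaged 56.9 ± 1.69, 237 ± 17.1 and 156 ± 2.45 CPM. It rose with dbcAMP (log2 change 2.00, SE 0.0773, edgeR adjusted p = 1.11e-08) and was higher in dedifferentiated than in undifferentiated cells (log2 change 1.41, SE 0.0765, edgeR adjusted p = 9.84e-07). Nck2, an adaptor that links Eph receptors to actin, rose with dbcAMP (log2 change 1.24, SE 0.0895, edgeR adjusted p = 8.16e-07) and fell after withdrawal (log2 change -1.45, SE 0.0901, edgeR adjusted p = 8.19e-07). Abl1, a tyrosine kinase of Robo and Eph signalling, fell with dbcAMP (log2 change -1.29, SE 0.082, edgeR adjusted p = 3.42e-07) and was lower in dedifferentiated than in undifferentiated cells (log2 change -0.68, SE 0.0811, edgeR adjusted p = 0.000136). After withdrawal Rasa1, a Ras GTPase-activating protein bound by EphB2, rose (log2 change 0.94, SE 0.0828, edgeR adjusted p = 8.57e-06), while the Rac activator Dock1 (log2 change -0.93, SE 0.0821, edgeR adjusted p = 8.73e-06) and the plexin-A partner Farp1 (log2 change -0.84, SE 0.0831, edgeR adjusted p = 2.11e-05) fell. Between dedifferentiated and undifferentiated cells the adhesion protein Alcam was higher (log2 change 1.23, SE 0.0846, edgeR adjusted p = 3.76e-06) and the phosphatase Ptpn11 lower (log2 change -0.73, SE 0.0777, edgeR adjusted p = 6.25e-05). Pak3, a kinase activated by Rac and Cdc42, had 5.88, 4.61 and 4.19 CPM in undifferentiated, 0, 0 and 0 in differentiated and 0.254, 0.0994 and 0.226 in dedifferentiated cells, so it was at 0 in all differentiated libraries, and was called lower in dedifferentiated than in undifferentiated cells (log2 change -4.61, SE 0.45, edgeR adjusted p = 0.000121).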

How the data were processed

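The authors deposited a table of estimated counts per gene for 9 cell mRNA libraries, made with Salmon according to the table's name and the submitters' processing notes, which also list STAR, HISAT2 and Trim Galore. Genome build and annotation are not given in the sources used here. Of the values 1.15% were fractional, none in a member, and all were rounded to whole numbers. Vesicle miRNA and lncRNA tables were not used here. Columns were matched to samples by library code and stage. Their replicate suffixes disagree with the sample titles, which were followed.

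CPM are estimated counts per 1000000 of the column total. Tests used edgeR 4.0.16 (R 4.3.3): filterByExpr with a minimum count of 10, TMM, and glmQLFit and glmQLFTest over all 9 libraries without covariates, with Benjamini-Hochberg adjustment over 10372 genes. The SE of a log2 change was taken from it and the F statistic (change over root F). Totals of 10058735 to 16212278 set the precision of low genes. Intervals of count ratios are exact 95% ones.

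Members, lists and the naming rule were chosen with earlier results of these data known. Values in every library are given, by family and comparison, for up to 2 members with the largest change among those called without overlapping libraries and with a mean of at least 1 CPM at the higher stage, and for the member with the most counts. Of the co-receptor and effector lists, up to 3 genes each way with the smallest p are named.

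The labels do not say that equal replicate numbers share a culture, so no block was used. Alternatives were the replicate block, other scalings and filters, DESeq2 1.42.0, the sequencing project, a log2 threshold of 1, only the 6 libraries compared, and leaving out each library. Promoters came from RefSeq (GRCr8). A planned comparison of protein sequences was not run.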

Additional observations from a re-analysis of the deposited data

How the results depend on the processing

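No called member changed sign in up to 19 alternatives. Of the called members, 32 of 38 with dbcAMP, 26 of 35 after withdrawal and 14 of 30 between dedifferentiated and undifferentiated cells were called in every alternative, leaving aside the test against a log2 change of 1. Requiring at least 10 counts in every library, which removes genes that were near 0 at a stage, left 25 and 23 members called in the first 2 comparisons. Those are counts among the fewer members that this filter left to test, not among the 47 of the main fit. Testing for a log2 change above 1 left 23, 15 and 6 members and 26, 11 and 7 genes of the co-receptor and effector lists in the 3 comparisons in order. Replicates 1 and 2 alone (sequencing project 9987) left 17 members and 20 list genes between dedifferentiated and undifferentiated cells. For these settings no share over all tested genes is set beside the counts. They therefore do not show whether members or list genes kept more or fewer calls than other genes. Leaving out each library in turn gave 34 to 37, 31 to 36 and 24 to 32 called members, and 55 to 62, 35 to 45 and 27 to 39 called list genes. Over all genes, the same fits called 5558 to 6415, 3916 to 5184 and 2246 to 3044. Deviations from stage means correlated by 0.028 to 0.304 between same-numbered libraries (mean 0.175, 7 of 9 pairs over 0.1). In 15 of 18 cases the same number gave the highest correlation, a hint of pairing from the data and not the design. Each pair enters these cases from both of its libraries, so the 18 are not separate observations. Replicate 3 also has a sequencing project of its own, so number and project cannot be told apart for it. The mean between other numbers, -0.0837, adds nothing to the hint of pairing, since deviations within a stage sum to 0 and largely fix that value. With the replicate number as a block, 38, 35 and 33 members were called, the last with Sema3g, Sema6c and Robo1 gained (edgeR adjusted p = 0.0118, 0.0316 and 0.0175). Here too the counts stand without a share over all tested genes.

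Sign changes were seen only for differences that were not called. With dbcAMP, Ephb2 (0.0101 as reported) was -0.0229 with DESeq2's size factors, -0.023 in its Wald test, -0.0177 with no count filter, -0.031 without the 10 most abundant genes and -0.0263 with only the 6 libraries compared. Sema3c was 0.0601 without a composition factor and 0.0101 with at least 10 counts in every library. In project 9987 alone, Sema5a was 0.0124 with dbcAMP, and Ntn1 and Sema4a were 0.19 and 0.24 between dedifferentiated and undifferentiated cells. The cause was not tested. Over left-out libraries the log2 change with dbcAMP ranged from -0.0616 to 0.0448 for Ephb2, -0.089 to 0.26 for Ephb3, -0.44 to 0.85 for Robo1, -0.10 to 0.13 for Sema3c and -2.20 to 0.0966 for Sema5a. It ranged from -0.61 to 0.89 for Epha5 after withdrawal. Between dedifferentiated and undifferentiated cells it ranged from -0.19 to 0.72 for Efna2, -0.17 to 0.0878 for Ntn1, -0.57 to 0.044 for Sema4a and -1.93 to 2.74 for Sema5b. Depth limits the 12 members not tested and those with a few counts at a stage (Ephb1, Epha5, Sema3f, Sema5b, Unc5d, Robo1), whose fitted changes have no firm size.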

Other observations

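Among the co-receptors and adhesion partners, 4 genes chosen after their values were seen are described here. Nfasc, the axon-glia adhesion protein neurofascin, had 0.242, 0.192 and 0 CPM in undifferentiated, 3.39, 2.16 and 1.79 in differentiated and 111, 45.8 and 40.9 in dedifferentiated cells. It increased over the 3 stages without overlap, and dedifferentiated replicate 1 was the highest library. It rose after withdrawal (log2 change 4.78, SE 0.45, edgeR adjusted p = 1.47e-05), by 4.17 on the log2 scale without dedifferentiated replicate 1. Undifferentiated cells held 5 counts in all, so the fitted changes against them have no firm size.

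Lingo1, a partner of the Nogo receptor, had 0.0806, 2.6 and 4.06 CPM in undifferentiated, 13.9, 22.4 and 26 in differentiated and 12.9, 19.2 and 18.6 in dedifferentiated cells. Undifferentiated libraries were lowest, and replicate 1 among them was near 0. Lingo1 rose with dbcAMP (log2 change 3.11, SE 0.56, edgeR adjusted p = 0.000653), by 3.95 without undifferentiated replicate 3. Ntng1, a GPI-anchored netrin relative, had 2.18, 14.9 and 14.6 CPM in undifferentiated, 0.221, 0.309 and 0 in differentiated and 4.49, 4.37 and 5.11 in dedifferentiated cells. Undifferentiated replicate 1 was low for its group, and the differentiated libraries were all below it. Ntng1 fell with dbcAMP (log2 change -5.96, SE 0.85, edgeR adjusted p = 0.000132), with log2 changes of -6.61 to -5.31 over left-out libraries, the extremes being those without differentiated replicate 2 and 3. Its differentiated libraries lay near or below the 3-count floor, so this fitted change has no firm size. L1cam, an adhesion protein that associates with neuropilin-1, had 678, 739.7 and 743 CPM in undifferentiated, 172, 247 and 307 in differentiated and 545, 597 and 653 in dedifferentiated cells. Differentiated libraries were lowest without overlap. L1cam fell with dbcAMP (log2 change -1.64, SE 0.17, edgeR adjusted p = 1.07e-05) and rose after withdrawal (log2 change 1.32, SE 0.16, edgeR adjusted p = 9.72e-05).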
